A study of Mus musculus with 6 samples.

Results

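The nuclear genes of the mitochondrial respiratory chain, together with Lyrm7, an assembly factor of its complex III, were followed in mouse hematopoietic stem cells with and without Elovl6. Members were taken by gene symbol: those starting with Nduf, Uqcr, Uqcc, Sdh, Atp5 or Cox4 to Cox8, plus Cycs, Cyc1 and Lyrm7, with pseudogene symbols left out and at least 20 counts summed over the 6 libraries. This gave 98 of the 51826 genes in the table. They are 36 complex I subunits (7 core and 29 accessory), 4 complex II subunits, 9 complex III subunits, 14 complex IV subunits, 15 complex V subunits, 16 assembly factors of complexes I to III (8, 4 and 4), cytochrome c itself and 3 related genes, Cox7a2l, Atp5s and Atp5sl. Another 5 symbols matched but had too few counts: Cox7a1 and Ndufa4l2 had 9 counts each, and Cox7b2, Cox8b and Cox8c had 0. Just inside the minimum lay Cox6a2 with 23 counts, followed by Cox4i2 and Sdhaf1 with 74 each.

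The libraries were made from bone marrow KSL cells without surface CD34; KSL stands for Kit-positive, lineage-negative and Sca-1-positive, and long-term stem cells are enriched in this fraction. There were 4 libraries from Elovl6 KO mice and 2 from WT mice. Elovl6 encodes an enzyme that lengthens long-chain fatty acids. The labels give neither the deletion's design and the background strain nor the age of the mice, and they do not state that each library is a separate animal, and p-values therefore rest on the spread between libraries, which may be technical.

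The respiratory chain passes electrons from NADH (complex I) and succinate (complex II) through ubiquinone to complex III, then through cytochrome c to complex IV, where oxygen is reduced. The protons pumped on the way drive ATP synthesis by complex V. Most subunits are encoded in the nucleus and imported, a few core subunits are encoded by mitochondrial DNA, and dedicated assembly factors that are not part of the finished enzyme put the parts together. Long-term hematopoietic stem cells are known for relying comparatively little on oxidative phosphorylation, and complex III is known to be needed for their function in mice. In human cells LYRM7, a small matrix protein of the LYR-motif family (its yeast counterpart is Mzm1), holds the Rieske iron-sulfur protein before that protein is inserted, as a late step, into complex III.

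Read depth differed between libraries. KO replicates 1 to 4 had 5137628, 4720822, 2816248 and 2121240 counts on genes, and WT replicates 1 and 2 had 3569449 and 3812524. The members held 0.799%, 0.700%, 0.693% and 0.786% of these counts in KO replicates 1 to 4, against 0.781% and 0.912% in WT replicates 1 and 2. Reads on a single ribosomal RNA-like gene model made up 11.4%, 12.4%, 22.0% and 27.9% of mapped reads in KO replicates 1 to 4. In WT replicates 1 and 2 they made up 12.9% and 14.8%. Reads on any other ribosomal RNA gene are not in these shares. Elovl6 itself had 106, 61, 56 and 18 counts in the KO libraries, against 111 and 147 in the WT libraries. This was 8.49 to 20.6 CPM (counts per 1000000 counts of the library) in KO and 31.1 to 38.6 in WT. Which exons the KO lacks is not stated. Of 11 stem cell markers, 10 were seen in all 6 libraries. Cd34 RNA was at 294 to 425 CPM in KO libraries and 312 to 349 in WT libraries, although the cells were sorted as CD34-negative. Ly6a, the gene of Sca-1, was at 32.1 to 52.1 CPM in KO and 65.8 and 75.5 in WT, without overlap. Hoxb5 lay the other way, with 2, 5, 1 and 1 counts in KO and 1 and 0 in WT. The groups overlapped in the other stem cell markers. Of all genes tested, 20.3% had groups without overlap, in either direction.

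Lyrm7 was the 1 member whose level changed past the threshold, where 0.159% of the 11969 genes tested did, and it rose in KO cells. It had 83, 85, 72 and 46 counts in KO replicates 1 to 4, against 16 and 14 in WT replicates 1 and 2. In CPM with library sizes scaled by the TMM method, as for all genes from here on other than marker sums, the level was 16.7, 17.7, 25.1 and 22.5 in the KO libraries, against 4.40 and 3.65 in the WT libraries. Every KO library was above both WT libraries, with a wide gap between the groups. The means were 20.5 ± 3.97 CPM in KO (SD, n = 4) and 4.03 ± 0.54 CPM in WT (SD, n = 2), a ratio of 5.04. The log2 fold change was 2.33 with a standard error of 0.36, and the adjusted p was 0.0415 by edgeR's quasi-likelihood test with Benjamini-Hochberg adjustment over all genes tested. In the authors' deposited table the fold of Lyrm7 was 4.99 and its adjusted p 1.39e-05. That it is called was known when the members were chosen, so the call is given as a description.

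The call lies close to the threshold, while the size moved little. With each library left out in turn, the log2 fold change of Lyrm7 ran between 2.20 and 2.47, and its adjusted p (edgeR) between 0.0419 and 0.476. The call was kept only without KO replicate 4, among these 6 fits. It was lost without KO replicate 1 (adjusted p 0.0529), KO replicate 2 (0.0984), KO replicate 3 (0.116), WT replicate 1 (0.385) or WT replicate 2 (0.476). Without KO replicates 3 and 4, the libraries with the largest share of reads on the ribosomal RNA-like gene model, the log2 fold change was 2.10. The adjusted p (edgeR) was then 0.132. A change in the share of a cell type and a change in RNA per cell cannot be told apart in bulk libraries.

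Lyrm7 (ENSMUSG00000020268) lies on chromosome 11, from 54826866 to 54860916 on the minus strand of mm10. All of its exon reads were placed uniquely, and its counts equal its unique exon reads. Reads that span an exon-exon junction of the gene numbered 50, 36, 44 and 34 in KO replicates 1 to 4, against 2 and 11 in WT replicates 1 and 2. Spliced reads therefore showed the same order of the groups as the counts. Unique intron reads numbered 31, 23, 17 and 7 in the KO libraries, against 4 and 9 in the WT libraries. As CPM of the intron reads of each library these were 6.95, 4.43, 4.45 and 2.02 in KO and 1.11 and 2.05 in WT, and here the groups overlapped by KO replicate 4. In edgeR's fit to the intron reads of 11585 genes, Lyrm7 had a log2 fold change of 1.43 with a standard error of 0.70 and an adjusted p of 0.746. The only annotated gene within its span is Gm25426, a small nuclear RNA gene on the other strand, which had 0 counts in all libraries. The antisense gene Lyrm7os, next to its end, also had 0.

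The promoter of Lyrm7 is shown because this is the member that changed, and those of Uqcrc1 and Cox7a2 for comparison, as a complex III subunit with a full NRF1 motif and a complex IV subunit whose KO libraries were all below the WT libraries. Each window runs from 250 bases before to 50 bases after a RefSeq start (GRCm38.p6), written 5′ to 3′ on the gene's strand, with capitals marking matches to the motifs searched. The windows lie at chr11:54860548-54860847 (minus strand) for Lyrm7, chr9:108936398-108936697 (plus strand) for Uqcrc1 and chr9:79759804-79760103 (minus strand) for Cox7a2. The Lyrm7 window lies wholly inside the gene's annotated span, whose 5′ end is at 54860916. The RefSeq start used here is therefore downstream of that end.
Lyrm7: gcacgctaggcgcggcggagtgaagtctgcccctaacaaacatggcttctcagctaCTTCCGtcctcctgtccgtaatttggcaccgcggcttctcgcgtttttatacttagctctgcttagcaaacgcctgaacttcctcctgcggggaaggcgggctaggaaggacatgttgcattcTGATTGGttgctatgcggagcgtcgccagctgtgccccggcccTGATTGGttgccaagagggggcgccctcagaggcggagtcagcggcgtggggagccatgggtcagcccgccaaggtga
Uqcrc1: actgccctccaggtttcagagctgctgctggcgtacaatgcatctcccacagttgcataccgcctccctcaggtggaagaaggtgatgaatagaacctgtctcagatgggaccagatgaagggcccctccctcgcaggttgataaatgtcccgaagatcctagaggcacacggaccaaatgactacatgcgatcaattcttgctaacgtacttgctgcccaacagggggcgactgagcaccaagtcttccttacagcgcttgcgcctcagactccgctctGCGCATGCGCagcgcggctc
Cox7a2: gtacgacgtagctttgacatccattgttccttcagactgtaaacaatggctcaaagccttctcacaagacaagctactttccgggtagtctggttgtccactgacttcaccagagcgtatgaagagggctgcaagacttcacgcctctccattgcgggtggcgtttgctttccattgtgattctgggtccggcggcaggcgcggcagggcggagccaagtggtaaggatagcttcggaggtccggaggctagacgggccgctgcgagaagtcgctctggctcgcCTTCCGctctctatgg
Windows were searched on both strands for the palindrome in capitals in the Uqcrc1 window (NRF1), CGGAAG (ETS factors), CCAATCA (NF-Y) and AAGATGGC (YY1), motifs chosen after the Lyrm7 sequence had been read. NRF1, the ETS factor GABP and YY1 are known regulators of respiratory chain genes. The Lyrm7 window held CCAATCA on its lower strand, as TGATTGG, at offsets -71 and -28 from the start base, and an ETS match at -194, but no match to the NRF1 letters. The Uqcrc1 window held the NRF1 letters at offset 30, and the Cox7a2 window an ETS match at 34. RefSeq windows were found for 80 members, 85 windows in all. The NRF1 letters were in 7 of these 85 windows (8.24%), against 0.971% of all 32851 windows. ETS matches were in 38 (44.7%), against 16.9%, YY1 matches in 11 (12.9%), against 2.75%, and NF-Y matches in 7 (8.24%), against 7.82%. Matches of different motifs overlapped in 16 windows among all genes.

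No other complex III gene was called. Uqcrfs1, which encodes the Rieske protein that LYRM7 holds in human cells, had 96.8, 69.9, 86.2 and 82.7 CPM in KO replicates 1 to 4, against 73.8 and 107 CPM in WT replicates 1 and 2. The groups overlapped, with a log2 fold change of -0.11 (SE 0.20, adjusted p 0.889). Bcs1l, the translocase that inserts the Rieske protein, was looked at for this role, outside the rule for named genes, and averaged 17.8 ± 2.22 CPM in KO (SD, n = 4) and 20.3 ± 4.51 CPM in WT (SD, n = 2), with a log2 fold change of -0.20. Ttc19, also taken for its role in clearing Rieske fragments, had a log2 fold change of 0.08.

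Among the other complex III assembly factors, none was called. Uqcc1 and Uqcc2, which act early on the mitochondrially encoded cytochrome b, averaged 50.8 ± 2.77 and 42.0 ± 6.67 CPM in KO and 59.9 ± 9.21 and 53.1 ± 8.53 CPM in WT (SD, n = 4 and n = 2). Their log2 fold changes were -0.24 and -0.34 (adjusted p 0.677 and 0.613). Uqcc3, another early factor, averaged 25.7 ± 7.03 CPM in KO and 26.3 ± 3.33 CPM in WT, at -0.06. Scaled by exon length, Lyrm7 was the lowest of these 4 factors in both groups, at 5.71 CPM per kilobase in KO and 1.12 in WT. Uqcc2 was the highest, at 50.2 CPM per kilobase in KO and 63.4 in WT.

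**Figure D1:**
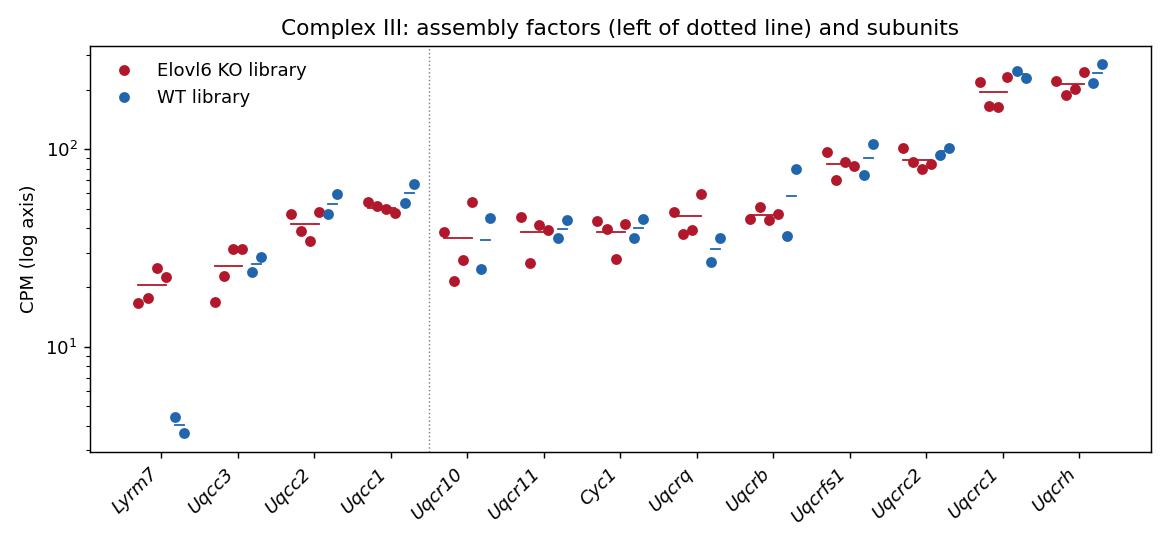
Level of each complex III gene in each library, in CPM on a log axis, with KO libraries in red and WT libraries in blue and a bar at each group's mean; assembly factors stand left of the dotted line. Lyrm7 is the gene with a wide gap, 16.7 to 25.1 CPM in KO against 3.65 to 4.40 CPM in WT, and in Uqcrq the KO libraries also lie above the WT libraries.

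Of the 9 complex III subunits, 7 had a log2 fold change below 0, with a median of -0.11, and none was called. That median was 0.11 without WT replicate 2 and -0.23 without WT replicate 1, so its sign rests on 1 library. Uqcrq, a small subunit at cytochrome b, went the other way. It had 48.4, 37.2, 39.1 and 59.7 CPM in KO replicates 1 to 4, against 27.0 and 35.4 CPM in WT replicates 1 and 2. All KO libraries were above both WT libraries, by a narrow margin, and the log2 fold change of 0.55 (SE 0.24) had an adjusted p of 0.494. The core proteins Uqcrc1 and Uqcrc2 averaged 195 ± 35.5 and 87.9 ± 9.39 CPM in KO and 240 ± 15.2 and 97.6 ± 6.03 CPM in WT, with log2 fold changes of -0.30 and -0.15. Uqcrh, the hinge protein by cytochrome c1 and the highest of the subunits per length, was at 174 CPM per kilobase in KO and 196 in WT, with a log2 fold change of -0.18. Cyc1, which encodes cytochrome c1, stood at -0.06, and the small subunits Uqcrb, Uqcr11 and Uqcr10 stood at -0.31, -0.06 and 0.00. Adjusted p-values of these 7 genes, from Uqcrc1 to Uqcr10, lay between 0.602 and 0.998. For Uqcrb only 35.0% of exon reads were unique, and its KO libraries, at 44.0 to 51.1 CPM, all lay between the WT libraries, at 36.3 and 79.2 CPM.

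Over all members, 1 was called higher in KO and 0 lower by edgeR, where 0.159% of the 11969 genes tested were called in either direction, 0.0919% higher and 0.0668% lower. Of the 98 members 97 were tested, as Cox6a2 did not pass the filter on low counts. DESeq2 called 1 member, where it called 0.728% of 11958 genes, and limma-voom called 0, where it called 0.0752% of genes. At an unadjusted p under 0.05 stood 2 members higher in KO, Lyrm7 and Uqcrq, where 5.67% of all genes did. Another 6 were lower in KO at that p, where 4.23% of all genes were: Ndufb9, Ndufa7, Sdhaf4, Cox7a2, Cox7a2l and Atp5g2. The lowest adjusted p among these 6 was 0.434. KO and WT libraries did not overlap in 2 members higher in KO, where 10% of all genes were so, and in 11 members lower in KO, where 10.3% were.

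Small differences below 0 were frequent among the members. The log2 fold change was below 0 in 73 members and above 0 in 24, where 49% of all genes tested lay below 0 and 51% above. The median over the members was -0.15, beside 0.01 over all genes tested. In 89 of the 97 members the change was within 0.5 of 0 on the log2 scale, and Lyrm7 alone was beyond 1.

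**Figure D2:**
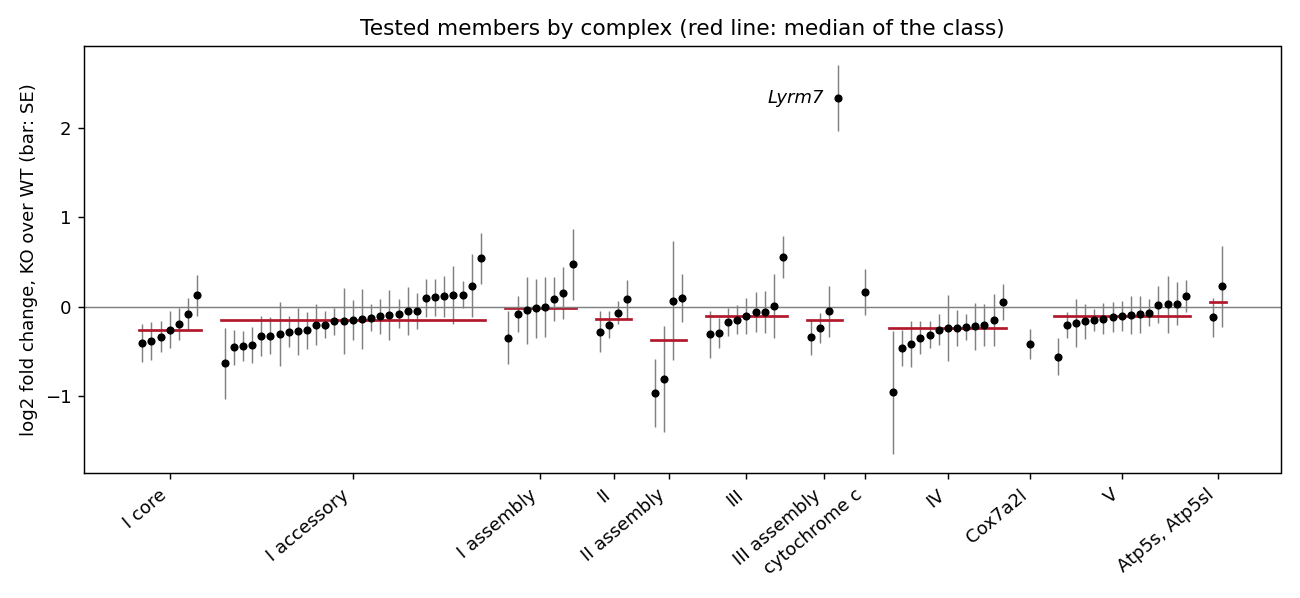
Log2 fold change (KO over WT) of each tested member with its standard error, by complex and role, with a red line at the median of each class. Lyrm7 stands at 2.33, and the medians of the subunit classes lie between -0.26 and -0.11.

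This shift was smaller than the gap between the WT libraries. The median log2 difference of the 97 members between WT replicate 2 and WT replicate 1 was 0.29, with 78 members higher in WT replicate 2. Against WT replicate 1, the median of the members was 0.11, -0.13, -0.13 and 0.12 in KO replicates 1 to 4. Against WT replicate 2 it was -0.12, -0.41, -0.41 and -0.16. KO replicates 1 and 4 were thus above WT replicate 1 and KO replicates 2 and 3 below it. Without WT replicate 2, 48 members were below 0 and 49 above, with a median of 0.00. Without WT replicate 1, 83 were below 0 and the median was -0.26. Members share their libraries, so these counts are no replicates of the difference between genotypes.

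**Figure D3:**
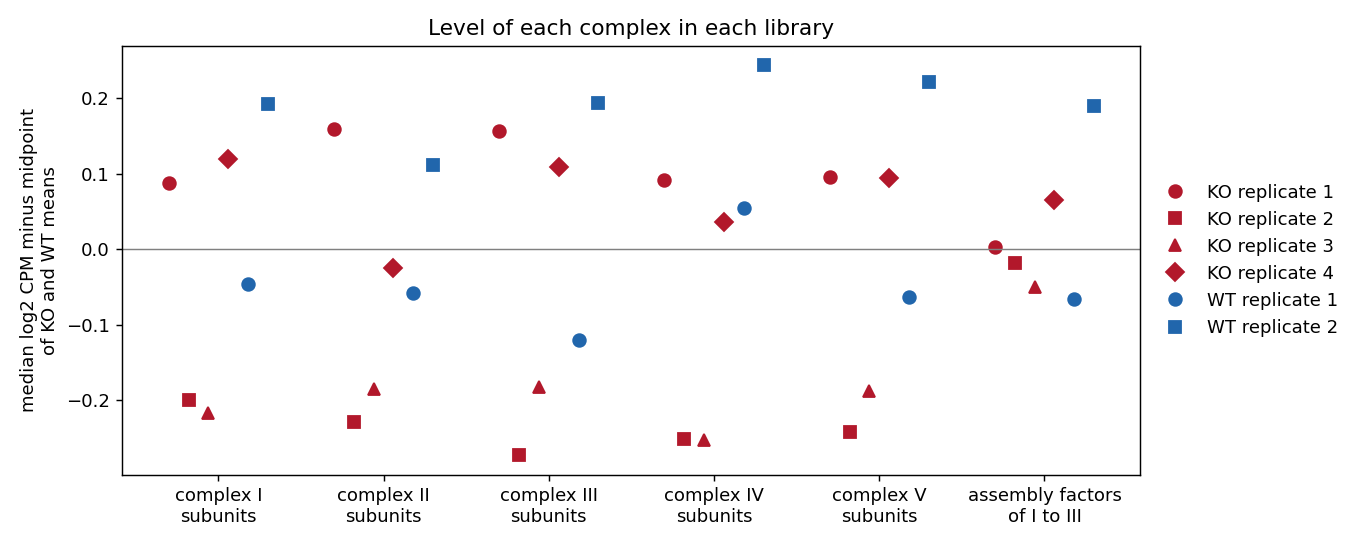
Level of each class in each library: the median over its tested members of log2 CPM minus the midpoint of the KO and WT means, with KO replicates in red and WT replicates in blue. KO replicates 1 and 4 and WT replicate 2 are high and KO replicates 2 and 3 low in complexes I, III and V, and the groups overlap in every class shown.

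Sums of genes listed as markers of other blood cells also differed between libraries. The summed level of 6 megakaryocyte markers was 96.0 to 219 CPM in KO libraries and 326 to 331 in WT libraries, without overlap. Sums of the 5 mast cell markers (224 to 343 in KO, 349 to 479 in WT), the 4 dendritic markers (366 to 731 in KO, 331 to 364 in WT) and the 5 T and NK markers (18.9 to 24.7 in KO, 12.9 to 14.4 in WT) did not overlap either. Most of these sums came from a single gene. Gata2, which stem and progenitor cells also express, was at 219 to 341 CPM in KO and 337 to 472 CPM in WT, where no other mast cell marker passed 7.87 CPM in any library. Flt3, a gene of early progenitors too, was at 326 to 696 CPM in KO and 314 to 347 CPM in WT, and the other dendritic markers overlapped between the groups. Nkg7 gave 12.5 to 20.8 CPM of the T and NK sum in KO and 7.56 to 9.71 CPM in WT. Of the megakaryocyte sum, Vwf gave 50.8 to 114 CPM in KO and 172 CPM in both WT libraries. Itga2b, Gp1ba and Selp did not overlap between the groups either, while Pf4 and Gp9 did. Pf4 was at 5.3 to 26.3 CPM in KO and 18.4 to 28.6 CPM in WT. Of all genes tested, 20.3% had groups that did not overlap, in either direction. The 8 B lineage markers summed to 830 in KO replicate 1, against 140 to 284 in the other KO libraries and 118 to 175 in WT. KO replicate 4 stood apart with 4696 for the 7 neutrophil and monocyte markers and 1216 for the 6 erythroid markers, where the other KO libraries had 193 to 811 and 153 to 308, and the WT libraries 750 to 983 and 86.0 to 225. No list had a marker at 0 in all libraries. Whether these sums, the megakaryocyte sum among them, reflect such cells or expression in the stem cells themselves was not tested. Any part of other cells in the members' values was not tested either, other than by leaving out libraries.

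Complex I had 28 of its 36 subunits below 0, with a median of -0.17, and 0 called. With WT replicate 2 left out the median was -0.0014, and with WT replicate 1 left out -0.25. At an unadjusted p under 0.05 were 2 of the 36, Ndufb9 and Ndufa7, both lower in KO. Ndufb9, an accessory subunit of the membrane arm, had 92.4, 77.6, 81.0 and 106 CPM in KO replicates 1 to 4, against 111 and 130 CPM in WT replicates 1 and 2. The KO libraries were all below the WT libraries, the highest of them only just. Its log2 fold change was -0.44 (SE 0.17, adjusted p 0.452). Ndufa7, an accessory subunit of the matrix arm, had 29.0, 30.1, 31.1 and 39.6 CPM in KO, against 44.0 and 44.3 CPM in WT. These groups did not overlap either, and the log2 fold change was -0.46 (SE 0.19, adjusted p 0.487). Ndufb4, another membrane-arm subunit, stood at -0.43 (adjusted p 0.511), but only 4.03% of its exon reads were unique, and with unique exon reads alone the value was 0.18. Ndufa6, itself a LYR-motif protein and the highest complex I subunit per length, was at 194 CPM per kilobase in KO and 223 in WT, with a log2 fold change of -0.20.

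The 7 core subunits of complex I, which carry the flavin and the iron-sulfur clusters, had a median of -0.26, with 6 below 0. The lowest of them were Ndufs3 at -0.41 and Ndufv2 at -0.39, and Ndufv1, the flavin subunit, stood at 0.13. These and the following extremes were picked after their values were seen. Among the 29 accessory subunits the range ran from -0.64 for Ndufb6 to 0.54 for Ndufs5, around a median of -0.16. None of the 36 had an adjusted p under 0.452.

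Complex I assembly factors were spread around 0, with a median of -0.01 and 5 of 8 below 0. Ndufaf7, an arginine methyltransferase, averaged 17.2 ± 4.12 CPM in KO and 22.0 ± 4.25 CPM in WT, at -0.35. Ndufaf8, in human cells a partner of NDUFAF5, averaged 13.4 ± 1.78 CPM in KO and 9.66 ± 5.49 CPM in WT, at 0.47. Its WT libraries were apart, at 5.78 and 13.5 CPM, and without WT replicate 1 its value was -0.01. Ndufaf1, an early membrane-arm factor, stood at 0.15 and Ndufaf2, a late factor and the highest of this class per length, at 0.09. The adjusted p-values of the 8 were 0.722 or higher.

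Per exon length the assembly factors were lower than the subunits. Their median over the factors of complex I was 7.85 CPM per kilobase in KO and 8.48 in WT. Over complex I subunits it was 33.5 in KO and 35.7 in WT. Complex III subunits had the highest median of the complexes, 53.2 in KO and 59.6 in WT. Atp5a1, the alpha subunit of the ATP synthase head, was the highest member, at 261 CPM per kilobase in KO and 290 in WT.

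**Figure D4:**
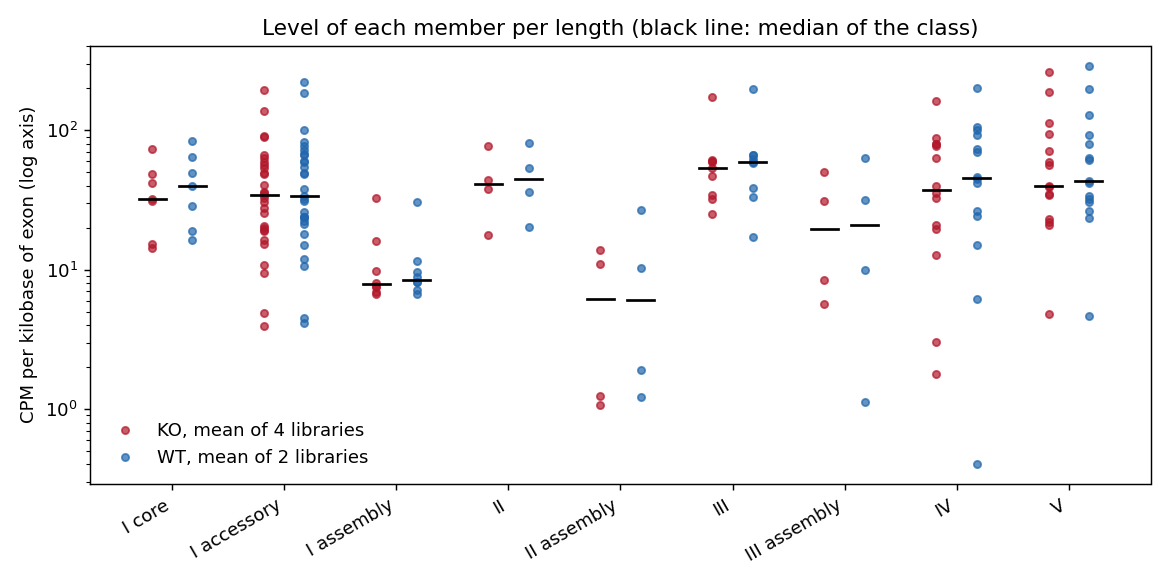
Mean level of each member per kilobase of exon, in CPM on a log axis, with KO means (4 libraries) in red left of WT means (2 libraries) in blue and a black line at the median of the class. Assembly factors of complexes I and II have lower medians than the subunit classes in both groups, 7.85 and 6.11 in KO and 8.48 and 6.09 in WT.

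Complex II, the succinate dehydrogenase that also serves the TCA cycle, had 3 of 4 subunits below 0, with a median of -0.14 that turned to 0.022 without WT replicate 2. Sdhc, one of its membrane anchors, had 61.5, 54.9, 54.1 and 59.7 CPM in KO replicates 1 to 4, against 64.4 and 68.0 CPM in WT replicates 1 and 2. The groups did not overlap but lay close together, at a log2 fold change of -0.20 (adjusted p 0.703). The other anchor, Sdhd, stood at -0.28, the flavoprotein Sdha, the highest per length, at -0.07, and the iron-sulfur subunit Sdhb at 0.08. Among the assembly factors, Sdhaf4, which aids the flavinylated Sdha, had 13.3, 7.10, 15.7 and 12.2 CPM in KO, against 15.7 and 31.3 CPM in WT. KO replicate 3 was level with WT replicate 1 here, and the log2 fold change of -0.97 (SE 0.38, adjusted p 0.453) was -0.39 without WT replicate 2. Sdhaf1, a LYR-motif factor for the iron-sulfur subunit, had 14, 13, 5 and 7 counts in KO, against 21 and 14 in WT. In CPM its groups did not overlap, at a log2 fold change of -0.81 (SE 0.59, adjusted p 0.686), and 22.6% of its exon reads were unique.

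Complex IV had the largest share of subunits below 0 of the 5 complexes, 12 of the 13 tested, with a median of -0.24 and 0 called. This median was -0.16 without WT replicate 2 and -0.42 without WT replicate 1. In 5 of the 13 the KO libraries were all below the WT libraries, where this held for 10.3% of all genes tested: Cox4i1, Cox4i2, Cox7a2, Cox7c and Cox8a. Cox7a2, a small membrane subunit, had 25.0, 30.5, 31.8 and 35.2 CPM in KO replicates 1 to 4, against 38.8 and 45.3 CPM in WT replicates 1 and 2. Its log2 fold change was -0.47 (SE 0.20, adjusted p 0.494). Cox8a, the highest of complex IV per length, had 97.4, 82.4, 83.4 and 91.5 CPM in KO, against 107 and 113 CPM in WT. Its groups were set apart by a small gap, at -0.31 (SE 0.15, adjusted p 0.532). Cox4i1, a subunit that binds ATP as a regulator of the enzyme, had 158, 117, 114 and 158 CPM in KO, against 164 and 163 CPM in WT. Its WT libraries were nearly equal and 2 of its KO libraries lay just under them, at a log2 fold change of -0.26 (adjusted p 0.649). Cox5b, the zinc-binding subunit, overlapped between groups and stood at -0.35 (adjusted p 0.573). Cox7c stood at -0.42 with 30.7% of its exon reads unique. Ndufa4, once assigned to complex I and now counted with complex IV, stood at -0.24.

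Cox7a2l, which ties complex III to complex IV in supercomplexes, had 135, 181, 122 and 150 CPM in KO replicates 1 to 4, against 187 and 206 CPM in WT replicates 1 and 2. KO replicate 2 lay close to the WT libraries and the other KO libraries clearly lower. The log2 fold change was -0.42 (SE 0.17), with an adjusted p of 0.455. Cytochrome c (Cycs) averaged 37.0 ± 8.99 CPM in KO and 33.2 ± 8.36 CPM in WT, at 0.16 (adjusted p 0.865).

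Complex V had 11 of 15 subunits below 0, with a median of -0.11 and 0 called. Without WT replicate 2 this median turned to 0.050, and without WT replicate 1 it was -0.26. The catalytic head subunits Atp5a1 and Atp5b averaged 819 ± 70.2 and 802 ± 115 CPM in KO and 909 ± 81.3 and 842 ± 83.5 CPM in WT. Their log2 fold changes were -0.15 and -0.07 (adjusted p 0.724 and 0.906). Atp5c1, the gamma subunit of the rotating shaft, stood at -0.20 (adjusted p 0.681). The membrane ring of complex V is built from 1 protein encoded by the paralogs Atp5g1, Atp5g2 and Atp5g3. Atp5g2 had 38.1, 26.9, 36.0 and 38.7 CPM in KO, against 45.1 and 57.3 CPM in WT, with a log2 fold change of -0.56 (SE 0.21, adjusted p 0.434). Its share of the summed per-length level of the 3 paralogs was 32.2% to 35.5% in KO libraries and 44.8% to 46.4% in WT libraries. That difference is uncertain, as 7.11% of the exon reads of Atp5g2 were unique and unique exon reads alone gave 0.095 on the log2 scale. Atp5g3 and Atp5g1 stood at 0.12 and 0.02.

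The other paralog pairs differ in the tissues they are known from. Cox4i1 held 94.3% to 99.4% of the Cox4 per-length level in KO libraries and 93.2% to 95.8% in WT libraries. The low isoform Cox4i2, known for its role in oxygen sensing in the lung, had 12, 15, 10 and 1 counts in KO and 22 and 14 in WT, at a log2 fold change of -0.96 (SE 0.69, adjusted p 0.679). Cox6a1 stood at -0.15, and the muscle isoform Cox6a2 had 13, 4, 4 and 0 counts in KO and 2 and 0 in WT. Cox6b2, described as a testis isoform, held 11.9% to 28.2% of the Cox6b level in KO libraries and 19.9% to 21.7% in WT libraries. Cox6b2 and Cox6b1 stood at -0.24 and -0.21.

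In 18 members less than 80% of all exon reads were unique. This is not the unique share of the counts, which take in reads not placed uniquely only where they span a junction. Such reads made up 86.0% of the counts of Atp5g2 but 0% of those of Sdhaf1. A gene on the other strand overlaps 35 members, and a gene on the same strand 12. Whether strand was used in counting is not given in the sources used here. On unique intron reads, 74 members could be tested, of which edgeR called 0 and 3 were at an unadjusted p under 0.05. Their median log2 fold change was -0.13, beside 0.02 over the 11585 genes of that fit. In the authors' deposited table, Lyrm7 is the 1 member that has an adjusted p under 0.05, as do 76 genes in all, and the fold is below 0 for 73 members.

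The genes around Lyrm7 were examined, with 15 other protein-coding genes within 500 kb of it and 12 of them tested. One of these, Gm2a, which encodes the GM2 ganglioside activator of lysosomes and starts 237 kb from Lyrm7, fell in KO cells. It had 67.8, 71.0, 63.5 and 45.5 CPM in KO replicates 1 to 4, against 162 and 227 CPM in WT replicates 1 and 2. The groups were far apart, at a log2 fold change of -1.64 (SE 0.20, adjusted p 0.00903 by edgeR), and the call was lost without WT replicate 1 (0.0885) or WT replicate 2 (0.252). Ccdc69, 189 kb away, had 26.6, 30.9, 35.6 and 25.9 CPM in KO, against 60.0 and 55.7 CPM in WT. These groups did not overlap, and the log2 fold change of -0.96 had an adjusted p of 0.150. Rapgef6 stood at 0.50 and Cdc42se2 at -0.45, each with an adjusted p of 0.390. Hint1, the nearest tested gene at 5.47 kb, stood at -0.01.

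The remaining neighbours were not called. Tnip1, Anxa6, Slc36a1 and Fnip1 stood at 0.29, 0.23, 0.20 and 0.05. Fat2, Gpx3 and Acsl6, which had few counts, stood at 0.99, -0.60 and -1.52. At an unadjusted p under 0.05 were 4 of the 12 neighbours, 33.3%, where 9.9% of all genes tested were. On the whole of chromosome 11 without Lyrm7 the share was 10.4% of 993 genes. Within 1000 kb it was 27.8% of 18 genes, within 2000 kb 28.6% of 28 genes and within 5000 kb 16% of 100 genes. Uqcrq is 1 of those 28, at 1.40 Mb from Lyrm7, which was noticed after its value was seen.

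**Figure D5:**
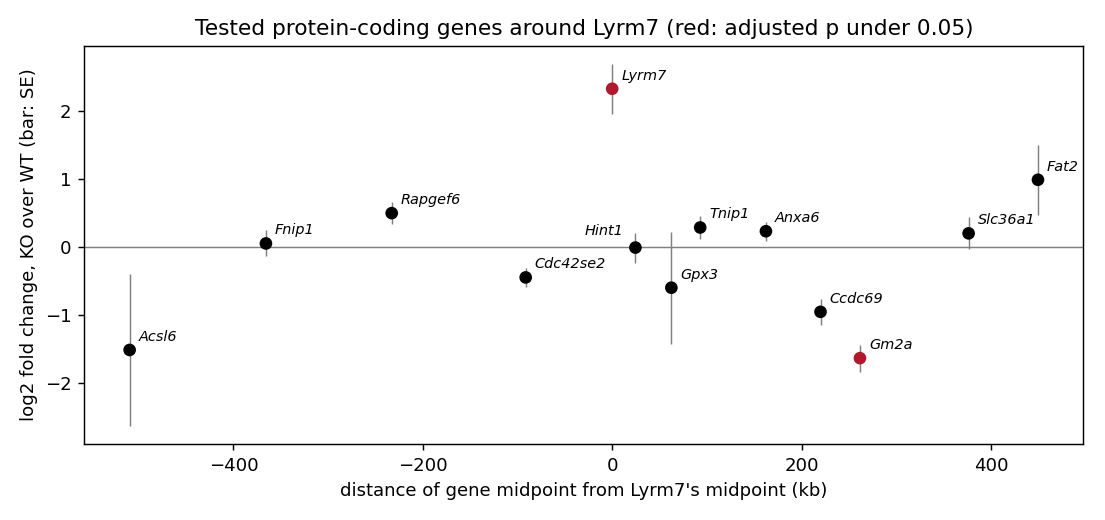
Log2 fold change (KO over WT) with its standard error for the tested protein-coding genes around Lyrm7, against the distance of each gene's midpoint from that of Lyrm7 in kb, with genes at an adjusted p under 0.05 in red. Lyrm7 at 2.33 and Gm2a at -1.64 are called, and Hint1, the nearest gene, lies at -0.01.

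In each of 6 other mitochondrial gene lists, 0 genes were called by edgeR, DESeq2 or limma-voom. In the subunits encoded by mitochondrial DNA, 9 of the 12 tested lay above 0, with a median of 0.17, and 3 were at an unadjusted p under 0.05, all higher in KO. Of these, mt-Nd2 had 661, 612, 615 and 599 CPM in KO replicates 1 to 4, against 429 and 479 CPM in WT replicates 1 and 2, at 0.45 (SE 0.12, adjusted p 0.320). Its groups did not overlap, and the same held for mt-Nd6 at 0.35 (adjusted p 0.434). As a list, these subunits overlapped between the groups. A list's level in a library is the median over its tested genes of log2 CPM minus the midpoint of the group means. It was 0.15, 0.12, -0.03 and 0.09 in KO replicates 1 to 4, against -0.21 and 0.08 in WT replicates 1 and 2. Counts were uneven, with 6792 to 18199 per library for mt-Co1, 15 to 35 for mt-Co2 and 4 to 19 for mt-Nd3. The reason was not tested.

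Assembly factors with other symbols had 26 of 36 below 0, a median of -0.20, and 4 at an unadjusted p under 0.05. Atpaf1, a factor for the head of complex V, averaged 13.3 ± 1.56 CPM in KO and 23.2 ± 2.23 CPM in WT, at -0.79 (adjusted p 0.408). Ecsit, a complex I factor that also acts in Toll signalling, averaged 13.4 ± 2.60 CPM in KO and 6.41 ± 0.89 CPM in WT, at 1.06 (adjusted p 0.425). The list of other LYR-motif and iron-sulfur genes also holds Mcat, a gene of mitochondrial fatty acid synthesis, at -0.54. This list had 19 of 22 below 0, a median of -0.21 and 1 at an unadjusted p under 0.05. That gene, Hscb, a co-chaperone that hands over iron-sulfur clusters, averaged 27.0 ± 5.67 CPM in KO and 43.2 ± 4.34 CPM in WT, at -0.66 (adjusted p 0.410). Nfs1, the cysteine desulfurase, stood at -0.47.

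The TCA cycle genes had 15 of 18 below 0, a median of -0.15 and 1 at an unadjusted p under 0.05, Idh3g at -0.36, and Suclg2 stood at -0.32. Mitochondrial ribosomal proteins had 60 of 77 below 0, a median of -0.09 and 6 at an unadjusted p under 0.05, all lower in KO, among them Mrpl23 at -0.77 (adjusted p 0.301) and Mrpl54 at -0.59. Regulators of mitochondrial biogenesis had 7 of 18 below 0, a median of 0.02 and 0 at an unadjusted p under 0.05, with Mterf1a at -1.49 (adjusted p 0.506) and Yy1 at 0.19. Over all genes tested, 49% lay below 0 and 9.9% were at an unadjusted p under 0.05. The ribosomal list's level was 0.05, -0.15, -0.17 and 0.06 in KO replicates 1 to 4. In WT replicates 1 and 2 it was -0.04 and 0.16. The TCA cycle list (KO -0.14 to 0.03, WT -0.04 and 0.19) and other assembly factors (KO -0.13 to 0.09, WT -0.02 and 0.18) overlapped too. WT replicate 2 was the highest library in each of these. Only in the LYR-motif and iron-sulfur list were both WT libraries (0.15 and 0.16) above all KO libraries (-0.13 to -0.03). It was 1 of 6 lists looked at, and this gap was not tested. Among single genes, 10.3% of all tested had all KO libraries below both WT libraries.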

How the data were processed

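RNA of CD34-negative KSL cells was sequenced after a strand-marking library kit, per the labels' protocols. Submitters' processing notes name the build mm10. The sources used here name no aligner, counter or strand setting. For the 6 libraries the authors deposited a single file. Per the file headers, its expression values are counts of reads per gene, and every one (100%) equals unique exon reads plus junction reads not placed uniquely. The table also gives counts of exon, junction and intron reads. RPKM as deposited by the authors served only to derive the mapped reads of each library. A normalized signal deposited by the authors has the same sorted values in each library and was not used. The authors' fold, p-values and adjusted p-values come from the deposited table, the fold being positive where KO is higher. Another 24 per-library columns were not used.

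For the counts, edgeR 4.0.16 (R 4.3.3) was used (filterByExpr, TMM, quasi-likelihood F test, genotype only, all 6 libraries), with Benjamini-Hochberg adjustment over 11969 genes and a threshold of 0.05. The SE is the log2 fold change over the square root of F. CPM of single genes other than the markers and Elovl6 use TMM-scaled sizes, log2 CPM a prior count of 2, and CPM per kilobase the deposited exon length. Intron reads were fitted alike. Libraries of a group differed beyond sampling noise (chi-square per degree of freedom 6.37 to 21.3), so none counts as a duplicate. Alternatives were DESeq2 size factors, DESeq2 1.42.0, limma-voom (limma 3.58.1), other filters, other read classes, omitted libraries and the replicate number as a block. The fit was tested on simulated data. Tables were made with pandas 2.3.3 and figures with matplotlib 3.10.9. All 98 members were found in GENCODE M21.

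Members and lists were chosen with earlier results of these data known. Named genes are Lyrm7, complex III genes, in each other class the 3 members with the smallest p and the 2 highest per length, paralogs, protein-coding genes within 500 kb of Lyrm7, and the 2 genes with the smallest p of each other list. Bcs1l, Ttc19, Sdhb, Cox7c, Ndufs3, Ndufv2, Ndufv1, Ndufb6 and Ndufs5 fall outside this rule.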

Additional observations from a re-analysis of the deposited data

Results flagged for a closer look

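Of 75 values looked at over the 4 KO libraries, 3 had 1 library far from the others, and chance alone sets about 1 in 20 apart. Gaps are given as a share of the range of the KO libraries on the log2 scale, and are not those of the CPM values printed. In Idh3g, a subunit of isocitrate dehydrogenase, KO replicate 2 was at 102 CPM and the other KO libraries at 125 to 128 CPM, a gap of 0.875 of the range. For Tnip1, a neighbour of Lyrm7, KO replicate 1 was at 194 CPM and the others at 257 to 271 CPM, a gap of 0.840. In Mrpl23, of the large mitochondrial ribosomal subunit, KO replicate 4 was at 22.5 CPM and the others at 26.1 to 26.9 CPM, a gap of 0.832. No respiratory chain member was among these 3, but the 75 values did not take in every member. Ndufc2, for example, was at 24.8 CPM in KO replicate 3 and at 40.1 to 42.4 CPM in the other KO libraries.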

How the results depend on the processing

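Of the 42 other named members, 0 were called under any of the alternatives, and 592 of their 628 values kept their direction. The count of genes called (19) was 87 with DESeq2, 9 with limma-voom, 307 without a filter on low counts, 33 without KO replicates 3 and 4, 34 with the replicate block in the libraries numbered 1 and 2, and 2 to 30 with 1 library left out. The members called (1) were 0 with limma-voom, without KO replicates 3 and 4, on total exon reads and with the replicate block, and 0 to 1 with 1 library left out. Lyrm7 stayed between 2.10 and 2.47 on the log2 scale. It was not past the threshold in limma-voom (2.29, adjusted p 0.189), nor without KO replicates 3 and 4 (2.10), on total exon reads (2.33, adjusted p 0.0550), with the replicate block (2.10, adjusted p 0.189) or in 5 of 6 fits with 1 library left out (2.20 to 2.47). Whether equal numbers pair the libraries is not stated in the labels. Deviations of same-numbered libraries correlated at -0.127 over 10727 genes, but with 2 pairs only this cannot decide it. Crossing the numbers, an alternative chosen after seeing the data, gave 200 genes and 1 member. With 1 library left out the medians ran from -0.42 (without WT replicate 1) to -0.16 in complex IV, from -0.20 (without WT replicate 1) to 0.0025 in the assembly factors, from -0.25 to -0.0014 in complex I, from -0.19 to 0.022 in complex II, from -0.23 to 0.11 in complex III, from -0.26 to 0.050 in complex V, and from -0.26 to 0.00 over all members. The causes were not tested.

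Signs turned in 16 named members. Cyc1 was 0.063 without KO replicates 3 and 4 and 0.070 with the replicate block, and Cox6a1 0.054 and 0.093. Uqcr10 was -0.18 with limma-voom and -0.21 in each of these fits. Atp5g1 was -0.029 with limma-voom, -0.32 without KO replicates 3 and 4, -0.084 on total exon reads and -0.28 with the replicate block. On unique exon reads Ndufb4 was 0.18 and Atp5g2 0.095. With 1 library left out, the ranges that cross 0 were -0.21 to 0.11 (Cyc1), -0.36 to 0.49 (Uqcr10), -0.21 to 0.10 (Uqcr11), -0.76 to 0.36 (Uqcrb), -0.35 to 0.18 (Uqcrfs1), -0.18 to 0.10 (Uqcc3), -0.0086 to 1.21 (Ndufaf8), -0.56 to 0.072 (Sdhd), -0.17 to 0.032 (Atp5b), -0.071 to 0.45 (Cycs), -0.29 to 0.42 (Atp5g1), -0.062 to 0.33 (Atp5g3), -0.50 to 0.31 (Cox6a1) and -0.42 to 0.039 (Cox6b1). Among the neighbours these were -2.22 to 0.063 (Acsl6), -0.11 to 0.23 (Fnip1), -0.28 to 0.33 (Hint1), -1.26 to 0.64 (Gpx3) and -0.018 to 0.45 (Slc36a1). Hint1 was 0.15 without KO replicates 3 and 4 and 0.17 with the replicate block, and Fnip1 -0.0061 with the block. Ccdc69 passed the threshold with DESeq2 (adjusted p 0.0314) and without a filter (0.00442). Fits without a WT replicate assume that the other one varies like the KO libraries. With 2 WT libraries, differences of the size seen in most members lie within the spread between libraries.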
